A study of Caenorhabditis elegans with 12 samples.

Results

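Transcripts of 57 cuticle collagen genes were counted in single oocytes of Caenorhabditis elegans. These genes carry a symbol made of col- and a number, and each had at least 30 reads when its counts were summed over the 12 oocyte libraries. They are 57 of the 156 col- genes and of the 46903 genes in the count table. The rule used the summed counts, so the presence of these genes above that sum is how they were chosen and is not a result. Just inside the limit lay col-60 with 39 counts, col-46 with 37, col-164 with 34 and col-110 with 33. Just outside it lay col-146 with 29, col-39 with 25, col-3 with 24 and col-117 with 21.

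The oocytes came from untreated adult wild-type animals, and each library held 1 oocyte. Positions -1, -3 and -5 are counted back from the spermatheca, so an oocyte at -1 is next in line for fertilisation and one at -5 is the youngest taken. There were 4 oocytes at each position, and the series asked how transcripts differ with the age of the oocyte and whether oocytes hold transcripts of somatic tissue. Animals are not named in the labels and a library is a single cell. A position therefore counts as 1 sample, no difference was tested, and values describe these 12 oocytes.

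The cuticle of C. elegans is an outer collagen matrix that the hypodermis secretes anew at each moult. Most of its collagens come from the large col- family, whose chains are short, form trimers, and are cut and cross-linked outside the cell. Many of them are made in waves during a moult or at one life stage, and single roles are known for few. Oocytes do not make cuticle, and in the gonad arm they lie against the smooth-muscle-like sheath cells. In this family, col-19 is an adult-stage cuticle collagen widely used as a marker of adult hypodermis, and col-2 is known from the dauer larva.

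Libraries held 8358019 to 20446599 counts, and the level of a gene is given in CPM, its count scaled to the size of its library after TMM scaling. The labelled cell type was checked with 15 oocyte genes, all of which had counts in every oocyte and which summed to 11808 to 33539 CPM. Of these, perm-2 and perm-4 ranged widely, from 11.8 to 1010 and from 23.1 to 1019 CPM, and add little to this check. Replicates 1 and 3 of oocyte -3 stood apart from the other libraries, with 8814 and 8289 genes detected against 9387 to 10054 in the other 10. Counts come from PCR-amplified 3' ends without molecular identifiers, so intervals cover counting error only. No read count at all in 1 oocyte allows a level of up to 0.146 to 0.337 CPM, which is 3 counts in that library.

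Collagen transcripts were a small share of each library, and 1 oocyte at -5 and 1 at -3 held the most. Summed over the 57 genes, the oocytes at -1 stood at 265, 216, 196 and 284 CPM for replicates 1 to 4. The oocytes at -3 stood at 836, 198, 291 and 428 CPM. Those at -5 stood at 307, 342, 538 and 1319 CPM. Replicate 4 of -5 was thus 2.45-fold above the next -5 oocyte and replicate 1 of -3 was 1.95-fold above the next -3 oocyte, while the other 10 oocytes lay between 196 and 538 CPM.

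As a share of all counts, the collagens made up 0.146% of replicate 4 of oocyte -5 (exact binomial interval at 95%, 0.144% to 0.147%) and 0.0667% of replicate 1 of oocyte -3 (0.0656% to 0.0679%). In the other 10 oocytes the share lay between 0.0205% and 0.0494%. The highest oocyte was 6.72-fold above the lowest.

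Every oocyte at -1 lay below every oocyte at -5, but the groups nearly touched. The lowest -5 oocyte was 1.08-fold above the highest -1 oocyte, and oocytes at -3 overlapped both other positions. Medians of the 4 oocytes were 240 CPM at -1, 359 at -3 and 440 at -5, and means were 240 ± 40.9, 438 ± 282 and 626 ± 473 CPM (SD, n = 4 oocytes each). From summed counts the level of a position was 252 CPM at -1 (exact Poisson interval at 95%, 248 to 256), 450 at -3 (445 to 455) and 693 at -5 (686 to 700). These intervals cover reads and not the spread between oocytes, which the SDs give.

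**Figure D1:**
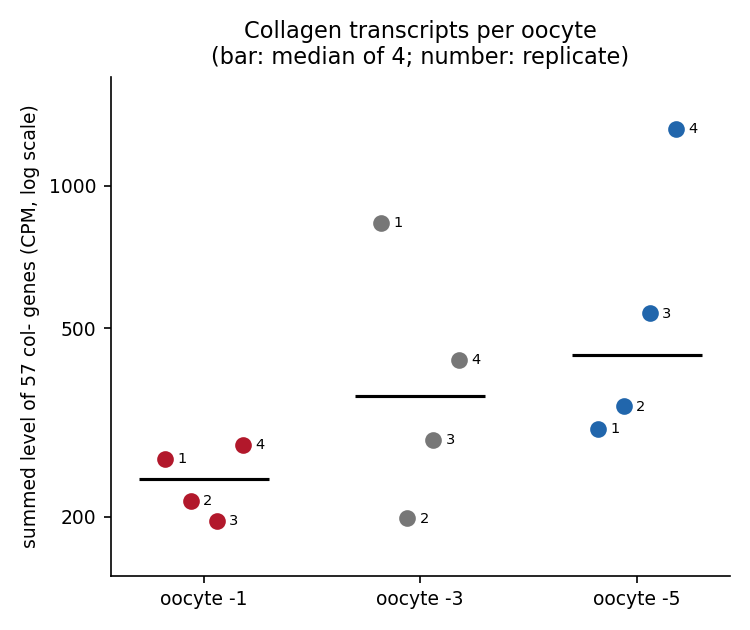
Summed level of the 57 col- genes in CPM on a log scale, 1 point per oocyte with its replicate number, grouped by position, with a bar at the median of the 4 oocytes. The -1 oocytes sit at 196 to 284 CPM, the -5 oocytes at 307 to 1319, and the highest points are replicate 4 of -5 and replicate 1 of -3.

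A few genes supplied most of the collagen reads. The 5 col- genes of highest mean CPM, col-140, col-101, col-19, col-119 and col-184, held 44.8% of all collagen counts and 30.9% to 57.8% of those in single oocytes. The 12 of highest mean CPM added col-124, col-122, col-181, col-20, col-80, col-38 and col-93 and held 77.5% of the counts (67.5% to 82.8% in single oocytes). Mean levels of these 12 ran from 58.3 CPM for col-140 to 13.4 CPM for col-93. Divided by exon length, the same 12 genes led. They ran from 60.2 CPM per kilobase for col-140, then 34.8 for col-119 and 32.7 for col-101, down to 13.4 for col-93. Reads came from 3' ends, so counts need not scale with exon length, and this order adds little to that by CPM.

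The gene col-140 held the most collagen counts in 10 of 12 oocytes, at 8.45% to 19.1% of them over all 12. In replicate 1 of oocyte -3 col-124 and col-181 led with 10.1% each, and in replicate 2 of oocyte -3 col-38 led with 10.6%. Some shares were steadier than others. That of col-119 ran from 5.05% to 9.80%, while that of col-38 ran from no count in replicate 3 of oocyte -1 to 10.6%.

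**Figure D2:**
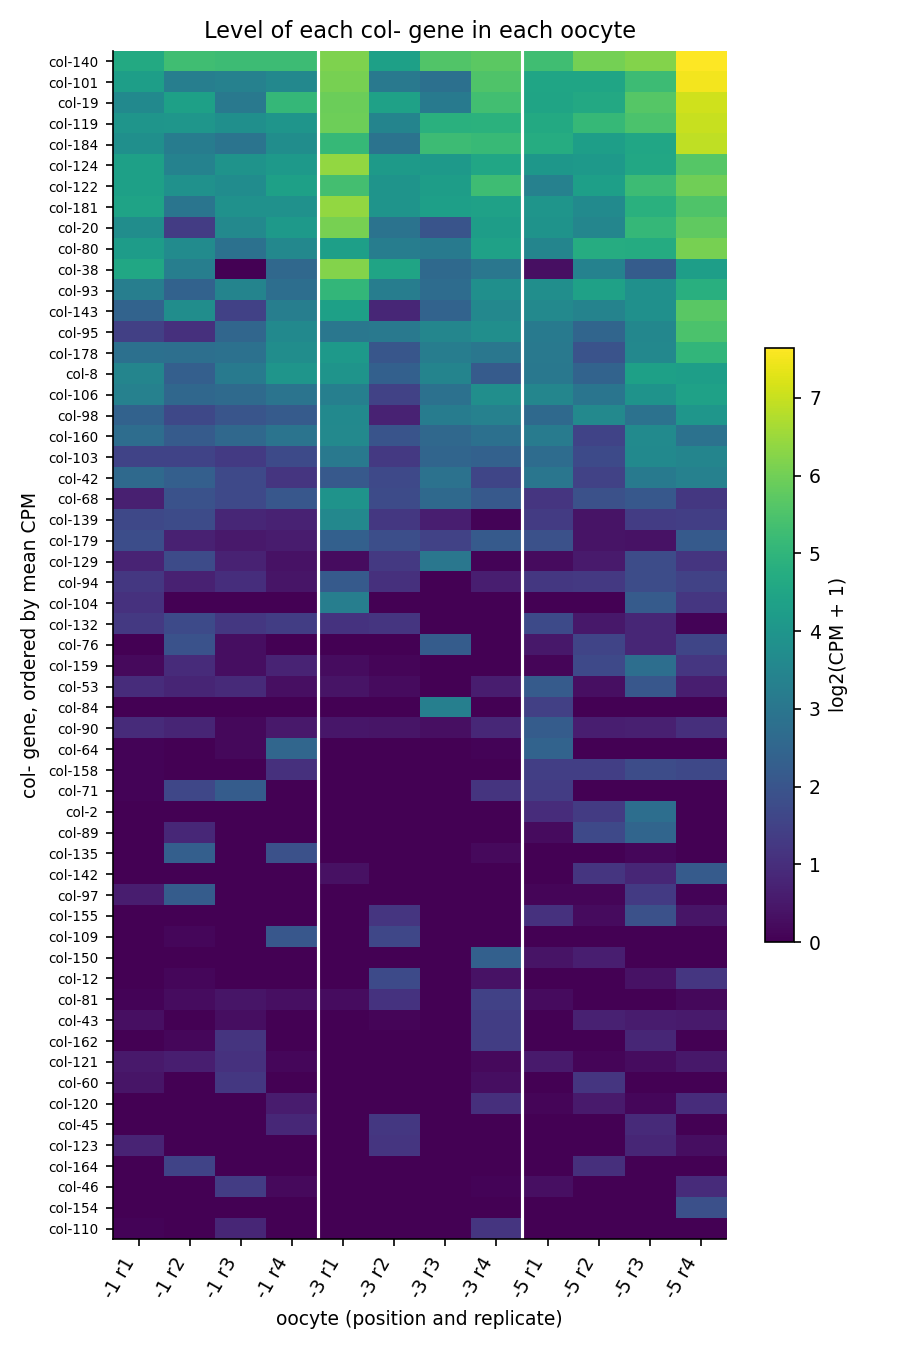
Level of each of the 57 col- genes (rows, ordered by mean CPM) in each of the 12 oocytes (columns, position and replicate) as log2(CPM + 1). The 24 genes at the top, with at least 300 counts, show colour in nearly every oocyte, and most genes lower down appear in some oocytes only.

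Detection followed the summed counts, with a steady and a scattered part. The same split was not computed over all genes, so it is not read as a trait of the collagens. There were 24 genes with at least 300 summed counts, and 23 of them had reads in all 12 oocytes. The exception was col-38, with no count in replicate 3 of oocyte -1 and 9.10 CPM or more at the level of each position. These 24 genes held 95.9% of the collagen counts, and none had over 50% of its counts in 1 oocyte.

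The other 33 genes, with 30 to 299 counts, were scattered. Of their 396 pairs of gene and oocyte, 207 had no count and 97 had at least 10, while only 36 had 1 or 2. Over 50% of the counts sat in 1 oocyte for 16 of these genes. For instance, col-150 had 80 of its 91 counts in replicate 4 of oocyte -3, col-84 had 142 of 164 in replicate 3 of oocyte -3, and all 46 counts of col-154 were in replicate 4 of oocyte -5. These 3 examples were chosen after their values were seen.

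The number of the 57 genes with a read was 39 to 41 at -1, 28 to 41 at -3 and 43 to 46 at -5. With each library thinned to 8358019 counts, the expected numbers were 38.2, 40.1, 39 and 38.3 at -1, 32.2, 36.4, 27.9 and 38.05 at -3, and 42.9, 42.0, 45.4 and 42.8 at -5. All genes expected at this depth numbered 9249 to 9686 at -1, 8038 to 9417 at -3 and 9336 to 9729 at -5, so the -3 oocytes included the lowest for all genes too. The separation of -5 from -1 depended on the limit of 30 counts. Over all 90 col- genes with a count the expected numbers were 42.1 to 48.2 at -1, 30.5 to 39.8 at -3 and 46.9 to 49.1 at -5, and -1 and -5 overlapped.

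**Figure D3:**
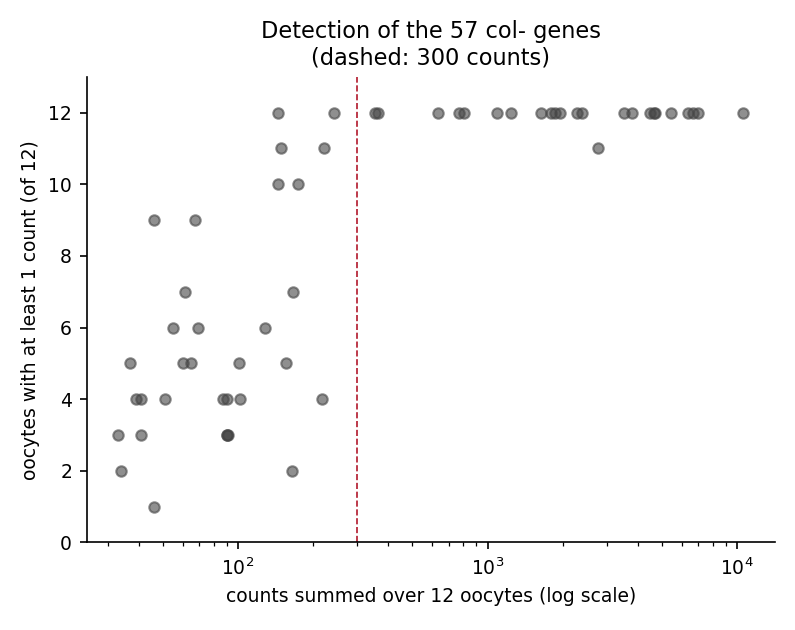
Number of oocytes with at least 1 count (vertical axis, of 12) against counts summed over the 12 oocytes (log scale), 1 point per col- gene, with a dashed line at 300 counts. To the right of the line 23 of 24 genes appear in all 12 oocytes, and to the left the points spread from 1 to 12.

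Position -1 was set against -5 gene by gene. A log2 ratio compares the levels of 2 positions, each from the summed counts of its 4 oocytes, with sums under 3 counts set to 3, and a gene was called higher or lower from a 2-fold difference on. Of the 57 genes 40 were lower at -1 than at -5 by any amount, 31 were at least 2-fold lower and 6 at least 2-fold higher, with a median log2 ratio of -1.04. Among the 10545 genes of at least 30 counts with a ratio, 12.8% were at least 2-fold lower, 10.5% at least 2-fold higher and 51.1% lower by any amount, and the median was -0.01. Over the 8718 genes passing edgeR's filter on low counts, which held 34 of the 57, these shares were 7.41% and 5.35% and the median -0.01. The collagens' share of 2-fold lower genes, 54.4%, was above that background, and their share of 2-fold higher genes, 10.5%, was equal to it. Some genes met the limit of 30 counts only through the position where they were high, which fixes the direction of their ratio. All 90 counts of col-2 and all 46 of col-154 were at -5, while col-135 had 98 counts at -1 and 1 at -5. The other comparisons share this limit.

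All -1 oocytes lay below all -5 oocytes for 8 of the 57 genes (14.04%), against 2.52% of the background, and none had all -1 oocytes above (background 2.48%). Those 8 were col-140, col-101, col-119, col-184, col-93, col-98, col-158 and col-155. The 24 better-counted genes gave 21 lower, 14 at least 2-fold lower, none at least 2-fold higher and a median of -1.21, with 6 separated. In genes of at least 300 counts the background was 4.63% at least 2-fold lower, 2.79% at least 2-fold higher, 50.7% lower by any amount and 3.03% with all -1 oocytes below. By the median of the 4 oocytes, 22 of the 24 were lower at -1 than at -5.

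Replicate 4 of oocyte -5 carried much of the size of this difference and less of its direction. Without it, 39 of 56 genes were still lower at -1, but 19 rather than 31 were at least 2-fold lower (33.9%, against 12.6% of the background without the same oocyte), 5 were at least 2-fold higher and the median was -0.54. The background was then 49.9% lower by any amount and 12.3% at least 2-fold higher. The 24 better-counted genes then gave 19 lower and 6 at least 2-fold lower (25%), with a median of -0.59, against a background of 49.7% and 4.80%. The log2 ratio of the summed level was -1.46 with all oocytes, a 2.75-fold lower level at -1, and -0.62 without replicate 4 of -5.

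**Figure D4:**
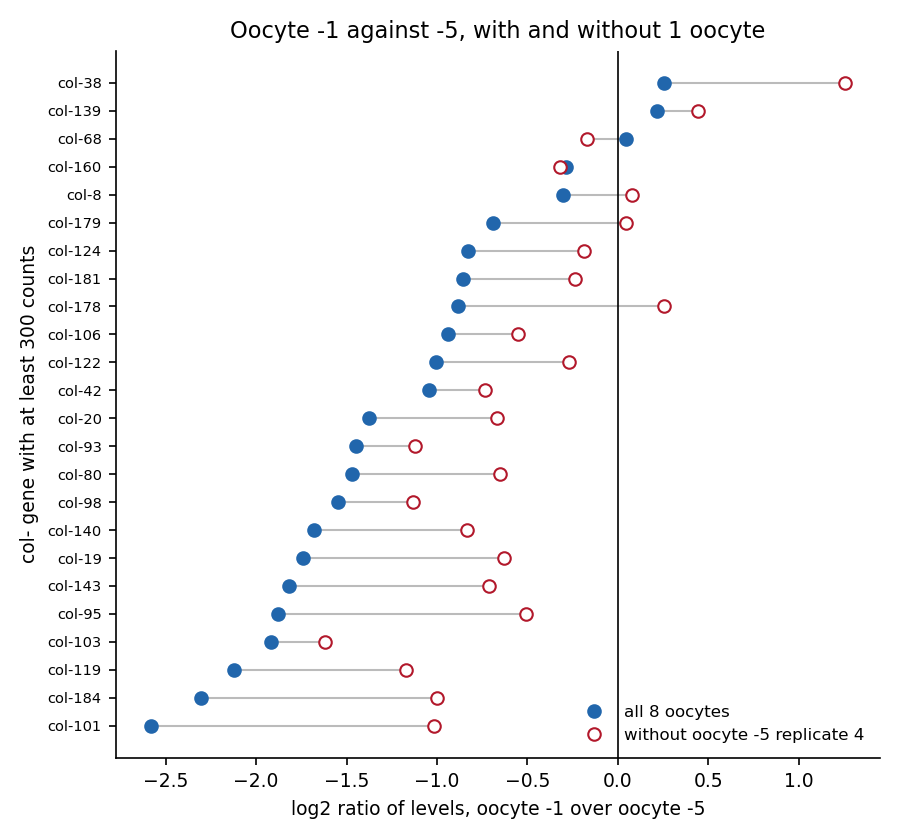
Log2 ratio of the level at -1 over that at -5 for the 24 col- genes with at least 300 counts (rows), from all 8 oocytes (filled) and without replicate 4 of oocyte -5 (open). With all oocytes 21 of 24 points lie left of 0, and without that oocyte 19 do, most of them closer to 0.

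The most abundant of the genes, col-140 (WBGene00000713, chromosome V, 5835855 to 5836871, as the count table places it), stood at 23.9, 38.4, 36.8 and 36.6 CPM in the -1 oocytes. At -3 it stood at 70.7, 19.3, 46.7 and 51.7 CPM, and at -5 at 38.4, 65.4, 73.1 and 199 CPM. The lowest -5 oocyte only just cleared the highest -1 oocyte. The log2 ratio of -1 over -5 was -1.68, or -0.83 without replicate 4 of -5.

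The lowest ratio among genes of at least 300 counts belonged to col-101 (WBGene00000675, chromosome IV, 325437 to 326711). Its -1 oocytes had 18.7, 8.55, 9.197 and 10.9 CPM, its -3 oocytes 66.8, 7.57, 6.02 and 45.4 CPM, and its -5 oocytes 21.3, 21.7, 36.9 and 181 CPM. No -1 oocyte reached a -5 oocyte, and the -3 oocytes fell into a low pair under every -1 oocyte and a high pair above 3 of the 4 -5 oocytes. The log2 ratio of -1 over -5 was -2.58, or -1.02 without replicate 4 of -5. At -5 the level of 76.9 CPM (74.6 to 79.3) rested largely on replicate 4, which held 45.3% of all col-101 counts.

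The adult-stage collagen col-19 (WBGene00000608, chromosome X, 421707 to 423033) had 11.4, 19.2, 7.51 and 32.8 CPM at -1. It had 60.3, 19.8, 7.81 and 39.5 CPM at -3 and 20.9, 23.3, 48.8 and 136 CPM at -5. Its positions overlapped, as replicate 4 of -1 exceeded both lower -5 oocytes. The log2 ratio of -1 over -5 was -1.74, -0.63 without replicate 4 of -5 and -2.35 without replicate 4 of -1. Of its exon bases 6.59% are shared with another gene, where reads may not be told apart.

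Oocytes at -1 were close together for col-119 (WBGene00000693, chromosome IV, 8978823 to 8979812), at 14.8, 15.2, 13.01 and 14.9 CPM. Its -3 oocytes had 61.0, 10.01, 27.97 and 28.7 CPM and its -5 oocytes 23.9, 33.5, 43.3 and 127 CPM. Among the 24 better-counted genes it followed the sum of the other collagens most closely, and its -1 oocytes were clear of the -5 oocytes by more than their own range. Its ratio was -1.17 without replicate 4 of -5 and -2.12 with it.

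For col-184 (WBGene00000757, chromosome X, 13469387 to 13470471) the -1 oocytes stood at 13.05, 8.28, 6.73 and 12.4 CPM. The -3 oocytes stood at 33.5, 6.48, 37.1 and 34.3 CPM and the -5 oocytes at 25.8, 18.4, 22.1 and 120 CPM. Here 3 of the 4 -3 oocytes exceeded 3 of the 4 -5 oocytes. The order of -3 and -5 turned on 1 oocyte, with a log2 ratio of -3 over -5 of -0.88, or 0.42 without replicate 4 of -5.

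Smaller steps separated col-93 (WBGene00000668, chromosome III, 10984555 to 10985609), with 8.57, 4.28, 9.87 and 5.78 CPM at -1 and 12.6, 19.8, 13.3 and 27.1 CPM at -5. Its ratio changed little with 1 oocyte, from -1.45 to -1.12 without replicate 4 of -5. Less abundant col-103 (WBGene00000677, chromosome IV, 762416 to 763680) had 1.90, 1.91, 1.46 and 2.29 CPM at -1 and 5.55, 2.29, 11.2 and 10.2 CPM at -5. Its -5 replicate 2 was level with its -1 replicate 4, and its ratio was -1.92, or -1.62 without replicate 4 of -5. In both genes the ratio rested less on that oocyte than in the 5 leading genes.

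The ratio of col-95 (WBGene00000670, chromosome III, 11703885 to 11705091) depended on single oocytes on both sides. It had 1.75, 1.09, 4.71 and 11.4 CPM at -1 and 7.92, 4.58, 10.6 and 43.5 CPM at -5. The log2 ratio was -1.88, -0.51 without replicate 4 of -5 and -3.12 without replicate 4 of -1.

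Other abundant genes differed less between -1 and -5 once the highest oocyte was set aside. The ratios of -1 over -5 were -0.83 for col-124, -1.01 for col-122, -0.86 for col-181, -1.38 for col-20 and -1.47 for col-80. Without replicate 4 of -5 they were -0.19, -0.27, -0.24, -0.67 and -0.65. In each of these 5 genes the -1 and -5 oocytes overlapped.

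At the upper end of the ratios the genes were near level between -1 and -5. The log2 ratio was 0.26 for col-38, 0.21 for col-139, 0.04 for col-68, -0.29 for col-160 and -0.30 for col-8. The value of col-38 (WBGene00000615, chromosome II, 8568035 to 8569089) has little weight, since its oocytes ranged from no count to 22.5 CPM at -1 and from 0.238 to 18.4 CPM at -5. It became 1.26 without replicate 4 of -5 and -0.89 without replicate 1 of -1. In these 5 genes no position lay wholly above or below another.

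At -1 against -3 more genes were also lower than higher, and another oocyte carried much of the size and of the direction. Of the 55 genes with a ratio 38 were lower at -1, 23 at least 2-fold lower and 14 at least 2-fold higher, with a median of -0.74. The background was 14.4% at least 2-fold lower, 14.5% at least 2-fold higher and 48.3% lower by any amount, and 9.51% at least 2-fold lower in genes passing the filter. No gene had all -1 oocytes below all -3 oocytes (background 2.52%), and col-132 alone had all above (background 3.15%). Without replicate 1 of -3, 30 of 54 genes were lower, 14 at least 2-fold lower (25.9%) and 15 at least 2-fold higher (27.8%). The median was then -0.20. The background without the same oocyte was 47.6% lower by any amount, 11.8% at least 2-fold lower and 16.1% at least 2-fold higher. This comparison shares its -1 oocytes with the one of -1 against -5, and that of -3 against -5 shares oocytes with both.

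Among the 24 better-counted genes 23 were lower at -1 than at -3 and 13 at least 2-fold lower with a median of -1.06, where the background of genes with at least 300 counts was 49.3% and 7.50%. Without replicate 1 of -3 the numbers were 17 lower, 3 at least 2-fold lower (12.5%) and a median of -0.30, against a background of 49.9% and 5.28%. For the summed level the log2 ratio was -0.84, or -0.36 without that oocyte. The ratios of col-20 and col-38 were -1.05 and -1.25 with it and 0.20 and 0.13 without it, and that of col-38 was -2.40 without replicate 1 of -1.

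Between -3 and -5 the direction of the summed level turned on 1 oocyte. With all oocytes 38 of 57 genes were lower at -3, 19 at least 2-fold lower and 10 at least 2-fold higher, with a median of -0.63, against a background of 15.1% at least 2-fold lower (9.10% in genes passing the filter), 12.8% at least 2-fold higher and 51.4% lower by any amount. All -3 oocytes lay below all -5 oocytes for 2 genes, col-158 and col-97 (3.51%, background 2.82%), a share near the background, and none had all -3 oocytes above (background 2.44%). The log2 ratio of the sum was -0.62, 0.22 without replicate 4 of -5 and -1.10 without replicate 1 of -3. Among the better-counted genes 18 of 24 were lower and 4 at least 2-fold lower, with a background of genes with at least 300 counts of 49.9% and 5.13%. Without replicate 4 of -5 these numbers were 10 and 0, with a background of 48.3% and 4.73%. Without replicate 1 of -3 instead they were 21 and 12, with a background of 50.1% and 6.26%. Without both oocytes they were 16 and 1, with a median of -0.37, and no background was computed for this setting.

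Replicate 4 of oocyte -5 and replicate 1 of oocyte -3 were rich in many of the same collagens, to differing degrees. Both oocytes were picked by the summed level of these same genes, so the numbers below follow in part from that choice. The same numbers over all genes were not computed. Of the 24 better-counted genes 20 had their highest -5 value in replicate 4 and 19 their highest -3 value in replicate 1, and 15 had both. For 12 genes both oocytes lay above the other 10. Replicate 4 of -5 was the highest of the 12 oocytes for 13 of the 24 better-counted genes, replicate 1 of -3 for 8 and replicate 3 of -5 for the other 3. Set side by side, 15 of the 24 were higher in replicate 4 of -5, by 6.13-fold for col-95, 3.59-fold for col-184, 3.52-fold for col-80, 2.82-fold for col-140 and 2.71-fold for col-101. The rest were higher in replicate 1 of -3, by 10.4-fold for col-68, 6.61-fold for col-139, 4.05-fold for col-38, 1.85-fold for col-181 and 1.73-fold for col-124.

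The pair col-124 and col-181 moved together more closely than any other. Levels of col-124 (WBGene00000698, chromosome IV, 10216450 to 10217643) were 19.2, 9.46, 14.4 and 16.6 CPM at -1, 84.3, 16.996, 16.1 and 22.2 CPM at -3, and 15.7, 16.5, 22.8 and 48.8 CPM at -5. Those of col-181 (WBGene00000754, chromosome X, 12104930 to 12106081) were 20.6, 6.91, 13.5 and 13.5 CPM, then 84.3, 14.5, 18.9 and 19.8 CPM, then 14.7, 11.6, 27.6 and 45.6 CPM. Both were highest in replicate 1 of -3, with 1307 counts each, and the count ratio of col-124 over col-181 stayed between 0.825 and 1.42 in all 12 oocytes.

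Over the 276 pairs of better-counted genes, the SD of the log2 count ratio across oocytes was 0.24 for this pair and 1.08 in the median pair. The next closest pair, col-140 and col-119, had count ratios of 1.16 to 2.83. Collagen genes include near-identical copies, and whether reads were shared within these pairs was not tested here.

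As a description over the 12 oocytes, which share their library and scaling within each point, the log2(CPM + 1) of each gene was correlated with that of the sum of the other collagens. Pearson's r ran from 0.27 to 0.96 in the 24 better-counted genes, with a median of 0.80, and 19 exceeded 0.5. It was highest for col-119 (0.96) and col-101 (0.93) and lowest for col-68 (0.27) and col-139 (0.37). Without the 2 highest oocytes the median was 0.61, so the pattern was not carried by them alone. In the 33 genes under 300 counts the median was 0.05, and 207 of their 396 values were 0.

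Outside the collagens, the 10 genes of highest r with the collagen sum were picked from 6484 genes (those averaging 5 CPM or more). The r that unrelated genes would reach in such a ranking was not computed. Whether these 10 genes vary with the collagens beyond chance was therefore not tested. They were led by F46F2.3 (r = 0.85), by ubc-13, which encodes a ubiquitin-conjugating enzyme (0.83), by the ubiquitin E2 variant gene uev-3 (0.79) and by eef-1B.2, a gene of translation elongation factor 1 (0.79). The other 6 were csc-1, a gene of the chromosomal passenger complex, the histone chaperone gene asfl-1, tag-273, W03F9.2, pes-5 and the TFIID gene taf-2, at 0.75 to 0.78. Without the 2 highest oocytes r was 0.40 to 0.84 over the 10, none of which is in a marker list used here. This range is for the same picked genes and is not a separate check. The ranges differed widely, as F46F2.3 ran from 1.79 to 24.95 CPM and ubc-13 only from 378 to 596 CPM.

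The 57 genes came from all 6 chromosomes. They made up 8 of 12 col- genes on chromosome III, 16 of 41 on IV, 14 of 31 on V, 8 of 24 on II, 6 of 27 on X and 5 of 21 on I. Of 29 pairs of col- genes within 5000 bases of each other, 11 had 1 gene with at least 30 counts and 1 below, 5 had both and 13 neither. On chromosome II, col-20 (4869607 to 4870791) had 3780 counts, while col-17 and col-73, within 5000 bases on either side, had no count. The gene col-184 had 5417 counts and its neighbour col-183 had 2, col-95 had 1958 and col-96 had 1, and col-80 had 3534 while col-39 and col-79 beside it had 25 and 0. In other pairs both had at least 30 counts, as col-178 with 1856 and col-179 with 365 counts on chromosome X, and col-93 with 2390 and col-94 with 221.

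Some collagens known from a life stage are set side by side here, chosen after their values were seen. The adult-stage col-19 was among the 5 genes of highest mean CPM, but col-7 and col-62, which are also known as adult collagens, had no count in any oocyte. The dauer collagen col-2 had 90 counts, in 3 oocytes of position -5 only. Of the near-identical neighbours col-12 and col-13, col-12 had 60 counts and col-13 none, a split that is uncertain. In all, 66 of the 156 col- genes had no count, and 33 had 1 to 29 counts that summed to 338.

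Few of the cuticle collagens that are named for their mutant phenotypes were counted. Of 23 such genes 22 were matched, 5 had at least 30 counts and 15 had none, among them dpy-7, dpy-13, rol-6, sqt-1 and sqt-3, which give classic dumpy, roller and squat mutants. Their sum was 0.682 to 23.8 CPM in single oocytes, highest in replicate 4 of -3 and not in the oocytes rich in col- transcripts. The most abundant were dpy-17 at a mean of 4.89 CPM, dpy-10 at 3.55 and dpy-14 at 1.397 CPM. At -1 against -5 the ratio of the sum was -0.23, and 2 of the 5 counted genes were higher and 3 lower.

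The summed level of genes that process collagen was well above the floor in every oocyte. Of 19 genes for collagen synthesis and cuticle assembly 14 had at least 30 counts, and the sum was 974 to 2991 CPM. It was led by the protein disulfide isomerase genes pdi-2 (mean 1184 CPM), the partner of the prolyl 4-hydroxylases, and pdi-1 (242 CPM) and by tmem-131, which is needed for collagen secretion (235 CPM). Replicate 1 of -3 had the highest sum, 2991 CPM, and replicate 4 of -5 one of the lower ones, 1692 CPM. Between -1 and -5 10 of the 14 were higher at -1 and 4 lower, with 2 at least 2-fold higher and 1 at least 2-fold lower. The hydroxylase gene phy-4 and the tetraspanin gene tsp-15 had no count, and phy-3 had counts in 1 oocyte and doxa-1 in 2.

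The summed level of other hypodermal genes was not at its highest in the collagen-rich oocytes, although single genes were. Of 28 hypodermis markers outside the collagens 22 had at least 30 counts, and snf-12 alone had none. Their sum was 183 to 231 CPM at -1, 143 to 292 at -3 and 152 to 222 at -5, with 222 CPM in replicate 4 of -5 and the lowest value of all in replicate 1 of -3. Most of it came from the transcription factor genes lin-26 (mean 87.5 CPM), nhr-23 (45.0) and elt-1 (18.2 CPM). These were counted in all 12 oocytes, so the sum and its correlations follow them more than the less abundant genes. Of the 22 counted genes 3 were highest in replicate 4 of -5 (vab-10, mua-3 and cnc-2, named for this) and none in replicate 1 of -3, where 14 were at their lowest or at 0. A gene at 0 there was included even where it was also at 0 in other oocytes. Replicate 1 of -3 was among the oocytes with the fewest genes detected (8814). The same tally over all genes was not computed, so it is not read as a trait of hypodermal genes. The ratio of the sum at -1 against -5 was 0.15, with 12 genes higher and 10 lower. The part of hypodermal RNA in the collagen values was not tested.

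The summed level of markers of the cells around the oocyte was highest in 1 of the 2 collagen-rich oocytes and lowest in the other. The 10 sheath and spermatheca markers, 9 of them with at least 30 counts and none at 0, summed to 965 CPM in replicate 4 of -5, against 217 to 258 CPM in the other -5 oocytes, 116 to 224 at -3 and 189 to 313 at -1. The sheath innexin gene inx-8 alone made 673 CPM of it. The filamin gene fln-1, of highest mean CPM in the list, stood at 218 CPM there and at 113 to 191 CPM elsewhere. Of the 9 counted genes 5 were highest in that oocyte, while 2 were at their lowest or at 0. In replicate 1 of -3 the same list stood at 116 CPM, nearly all of it fln-1 at 114.5 CPM, and 5 of the 9 were at their lowest or at 0. These tallies were not computed over all genes, and few genes were detected in replicate 1 of -3. The ratio of this list at -1 against -5 was -0.97, or 0.02 without replicate 4 of -5.

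Basement membrane collagens, which are not cuticle components and come largely from muscle and gonad, were also highest in replicate 4 of -5. The 3 genes emb-9, let-2 and cle-1 summed to 103 CPM there, to 69.8 CPM in replicate 1 of -1 and to at most 34.2 CPM elsewhere. The eggshell genes perm-2 and perm-4, among the 15 oocyte genes, reached 1010 and 1019 CPM in the same oocyte. In the other oocytes they ranged from 11.8 to 328 and from 23.1 to 428 CPM, highest in replicate 3 of -3. This pair was named after its values were seen. The part of somatic RNA in the collagen level of replicate 4 of -5 was not tested.

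The 18 muscle markers, none at 0, summed to 1026 to 2107 CPM at -1, 394 to 1249 at -3 and 578 to 1376 at -5, with 1376 CPM in replicate 4 and at most 802 in the other -5 oocytes. Of 15 intestine markers 1 had no count, and the list stood at 48.0 to 308, 66.6 to 138 and 87.9 to 307 CPM. The 11 neuron markers, none at 0, stood at 297 to 480, 327 to 380 and 366 to 448 CPM. The muscle sum leaned on unc-54, at a mean of 674 CPM, and the neuron sum on snb-1, at 285 CPM. Of 7 sperm markers 4 had no count, and the list stood at 0.839 to 5.94 CPM. The 6 cuticlin genes, 3 of them with no count, were highest in replicate 1 of -3, at 5.097 CPM, and stood at 2.23 CPM or less elsewhere. These lists overlapped between positions. At -1 against -5 the log2 ratio of the sum was 0.71 for the muscle list, with 15 genes higher and 3 lower. The oocyte list was lower at -1, as the collagens were, with a ratio of -0.56, 12 of its 15 genes lower and 3 higher. In 4 of the 15 all -1 oocytes lay below all -5 oocytes. For these and the other lists, the background of genes with at least 30 counts was 51.1% lower at -1 by any amount. It was 12.8% at least 2-fold lower, 10.5% at least 2-fold higher and 2.52% with all -1 oocytes below. Over the 12 oocytes, as a description, r with the collagen sum was -0.34 for the hypodermis list, -0.08 for muscle, 0.18 for the other named cuticle collagens, 0.20 for intestine, 0.27 for collagen synthesis, 0.34 for basement membrane, 0.41 for sheath, 0.44 for neurons, 0.53 for the cuticlins, -0.32 for sperm and 0.10 for the oocyte list. Without the 2 highest oocytes it was -0.43, -0.71, 0.02, 0.64, 0.40, -0.36, -0.01, 0.16, 0.84, 0.10 and 0.04 in the same order. The cuticlin values have little weight, as the list held 19, 95 and 27 counts at -1, -3 and -5. Of the oocytes left, replicate 3 of -5 had 2.23 CPM of cuticlins and the others 0.771 CPM or less.

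**Figure D5:**
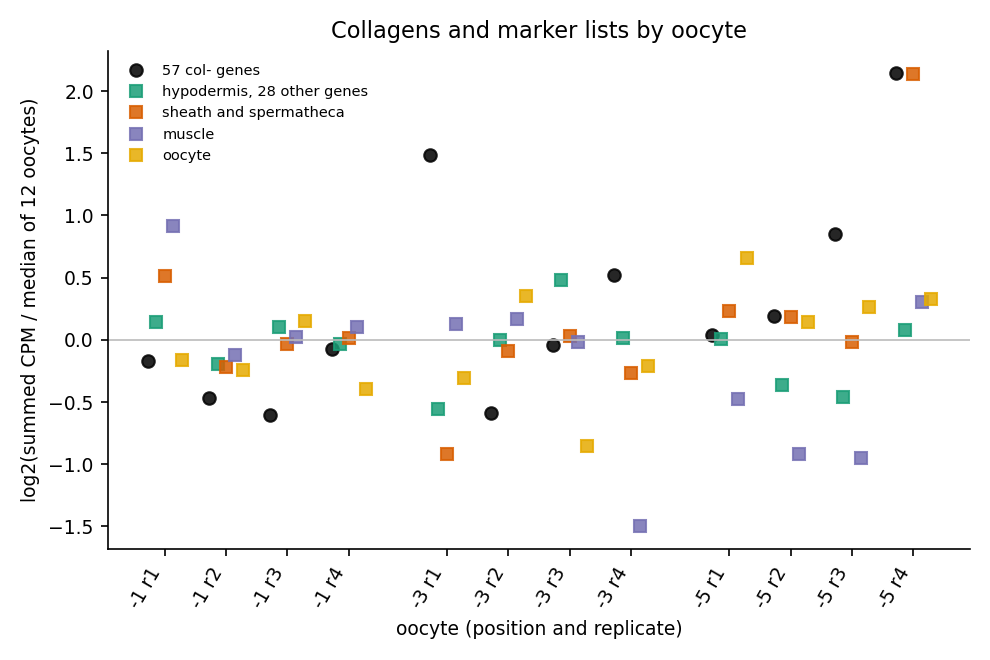
Summed CPM of the 57 col- genes (circles) and of 4 marker lists (squares) in each oocyte, as log2 of the value over the median of the 12 oocytes. In replicate 4 of -5 the col- genes and the sheath and spermatheca list are both high (1319 and 965 CPM), while in replicate 1 of -3 the col- genes are high (836 CPM) and the sheath and hypodermis lists are at their lowest (116 and 143 CPM).

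In the authors' deposited tables of pairwise comparisons, 28 of the 57 genes were listed for -1 against -3, 21 for -1 against -5 and 23 for -3 against -5. The authors' log2 fold change was negative for 24, 19 and 17 of them, and in all 28, 21 and 23 it had the sign of the ratio computed here. Both were made from the same libraries, so the shared sign is not a separate check. Among the leading genes, col-184 was not listed for -1 against -5, col-124 not for -1 against -3, and neither for -3 against -5. The Wald score in the authors' deposited tables has the opposite sign to the fold change for every gene, 7585, 7286 and 7277 genes in the same order. The authors' deposited table gave -2.48 for col-101, -1.99 for col-119 and -1.49 for col-140 at -1 against -5.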

How the data were processed

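RNA of 12 single oocytes was made into libraries with a kit that reads 3' ends of polyadenylated transcripts, per the labels' protocols. The submitters' processing notes list cutadapt 1.18 for trimming, FastQC 0.11.5 for quality, STAR for alignment and featureCounts 1.5.3 for counting. The count table's own header shows featureCounts 1.6.4 instead. Its command, per the file headers, used the WormBase WS271 annotation without options for strand, multi-mapping reads or overlapping genes, so reads of antisense, overlapping or near-identical genes may be mixed or lost. Coordinates are printed as the count table has them, on a genome build not given in the sources used here. The deposited values are raw read counts per gene. The authors' deposited comparison tables hold log2 fold changes made with DESeq2 1.32.0, per the submitters' processing notes. Of the authors' Wald score only the sign was read, and the mean signal and p-value columns were not used.

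Of 46903 gene identifiers 44018 had a symbol. Counts were scaled with TMM factors of 0.798 to 1.17 (edgeR 4.0.16, R 4.3.3, over the 8718 genes passing its filter, 34 of the 57 collagens among them). A position's level divided the counts added over its 4 oocytes by their added scaled library sizes, with a floor of 3 counts over the position. The background was every gene of at least 30, or 300, summed counts. No difference between positions was tested, so no p-value is given, and Dixon's ratio served only to screen for single oocytes far from the other 3. The code was tested on simulated data.

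The collagen genes, the marker lists and the limits were chosen with earlier results of these data known. Genes named were the 12 of highest mean CPM, the 5 of highest and the 5 of lowest -1 over -5 ratio among those of at least 300 counts, the 10 most similar other genes, and the 3 most abundant of a marker list. Markers named for having no count, neighbours, and genes at the limit or separated between positions follow their own counts. Alternatives were DESeq2 1.42.0 size factors, total counts, the mean or median of oocytes, other count limits and leaving out oocytes.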

Additional observations from a re-analysis of the deposited data

Results flagged for a closer look

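Within groups of 4 oocytes, 90 sets of values (the named collagens and the list sums at each position) were screened for 1 oocyte far from the other 3, by Dixon's ratio of the gap to the range at its 95% critical value. Chance gives about 1 in 20 for independent sets of normally distributed values, and 14 were found. These sets share oocytes, hold unlogged CPM and include collagens named from these same data. The 14 are therefore not read as an excess over chance. In replicate 4 of oocyte -5 they were col-101 at 181 CPM (others 21.3 to 36.9), col-184 at 120.3 (18.4 to 25.8), col-95 at 43.5 (4.58 to 10.6), the basement membrane collagens at 103 CPM (4.65 to 17.7) and the sheath and spermatheca markers at 965 CPM (217 to 258). In replicate 1 of oocyte -3 they were col-124 at 84.3 CPM (16.1 to 22.2), col-181 at 84.3 (14.5 to 19.8), col-139 at 10.97 (0.0514 to 1.35) and the cuticlins at 5.097 CPM (0 to 0.771). The cuticlins also stood out in replicate 3 of oocyte -5, at 2.23 CPM (0 to 0.237), and the muscle markers in replicate 1 of oocyte -1, at 2107 CPM (1026 to 1196). The low values were col-140 at 23.9 CPM in replicate 1 of oocyte -1 (36.6 to 38.4), col-184 at 6.48 CPM in replicate 2 of oocyte -3 (33.5 to 37.1) and col-139 at 0.316 CPM in replicate 2 of oocyte -5 (1.51 to 1.66).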

How the results depend on the processing

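No paired analysis was possible because no comparison between positions was tested and the replicate numbers name no shared animal. Leaving out 1 oocyte in turn, the log2 ratio of the summed level ran from -1.69 to -0.62 for -1 against -5, from -1.01 to -0.36 for -1 against -3 and from -1.10 to 0.22 for -3 against -5. The median ratio of the genes ran from -1.45 to -0.54, from -0.83 to -0.20 and from -1.04 to -0.02, and the number of genes higher from 13 to 17, from 15 to 24 and from 15 to 27. The gap of the lowest -5 over the highest -1 oocyte ran from 1.08 to 1.21 and was 1.02 with total counts. Without replicate 4 of -5 and replicate 1 of -3 together, an alternative chosen after seeing the data, the summed ratio of -1 against -5 was -0.62. The -3 oocyte does not enter that comparison. The number of genes higher at -1 than at -5 was 10 by the median of oocytes, 3 among genes of at least 300 counts and 26 with all counted col- genes. At -1 against -3 it was 1 and 28 for the last 2 settings, and at -3 against -5 it was 6 by the median and 6 among genes of at least 300 counts. The ratio of col-139 at -1 against -3 was -1.07, but 0.62 by the median, 1.44 without replicate 1 of -3 and 1.46 without its replicates 1 and 3. At -3 against -5 it was 1.28, but -0.68, -1.23 and -1.24 in the same order, and -1.00 without both highest oocytes. Leaving out 1 oocyte, col-139 ran from -1.59 to 1.44 and from -1.23 to 1.81 in these comparisons, col-20 and col-38 at -1 against -3 from -1.43 to 0.20 and from -2.40 to 0.13, both highest without replicate 1 of -3, and col-101 at -3 against -5 from -1.77 to 0.36, highest without replicate 4 of -5. The cause was not tested. Of the other alternatives, 65 of 73 values of the sums, medians and numbers moved by less than the spread or the 1.5-fold limit used. Leaving out members with near-identical proteins was not run. Both the number of oocytes, 4 at a position with no animals named, and, for genes under 300 counts, the depth limit these values.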
